A study of Mus musculus with 9 samples.

Results

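The genes described here are 48 genes of the DNA damage response and of DNA repair, taken by gene symbol from a list that covers damage signalling, the p53 family and the main repair pathways, out of 30153 genes measured in mouse eggs. All 48 were found, and all 48 passed the filter on low counts in each comparison. The list was drawn up with results of these data known, among them that Nbn is lower in GFP High than in RFP eggs, so the difference in Nbn is given as a description. Poly-A RNA was sequenced from pools of MII oocytes, eggs arrested at the second meiotic metaphase, of 4-week-old females of mixed genetic background. Every group carried the same alleles, Sycp3CreERT2/+; Rosa26nT-nG/+, and received 5 IU of PMSG, 5 IU of hCG 48 hours later and collection 13 hours after hCG. Sycp3CreERT2 is a drug-inducible Cre recombinase at a gene used in meiotic germ cells, and the Rosa26 nT-nG allele switches from a nuclear red to a nuclear green protein after Cre has acted; when an inducing drug was given is not stated in the sources used here. Cumulus cells were stripped with hyaluronidase and the eggs were picked by hand under fluorescence into 3 groups of 3 libraries each, GFP High, GFP Low and RFP. The pools held 15, 15 and 16 eggs for GFP High, 49, 52 and 57 for GFP Low, and 87, 88 and 100 for RFP, so that the number of eggs and the fluorescence group cannot be told apart. These sizes are listed from lowest to highest, and which library had which size is not known. The labels do not say that the replicates came from separate animals, and the p-values measure only the spread between these pools.

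Cells answer broken DNA through the kinases ATM and ATR, which signal to the checkpoint kinases CHK2 and CHK1 and to the p53 family. In oocytes held in prophase the p53 relative TAp63, acting downstream of CHK2, is known to remove oocytes with unrepaired breaks. A fully grown egg is transcriptionally silent and carries stored messenger RNA, and its repair proteins also serve the DNA brought in by the sperm. Levels in pooled eggs are averages: a lower level in every egg and absence from some of the eggs cannot be told apart.

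The libraries held 19381677 to 27746256 counts assigned to genes. The eGFP transcript, which checks the sort, was at 36.0 to 44.0 CPM (read counts relative to library size, scaled by TMM over the 9 libraries) in the GFP High pools, 14.6 to 23.9 in those of GFP Low and 0 to 0.594 in those of RFP. All 10 oocyte markers were detected in every group, with summed levels of 6995 to 7506 CPM for GFP High, 6448 to 6677 for GFP Low and 6584 to 6796 for RFP. Of 13 cumulus and granulosa cell markers, 11 had a count in GFP High (Amh and Foxl2 were at 0), 13 in GFP Low and 12 in RFP (Amh was at 0), and their summed level was 8.59 to 46.6 CPM, 15.2 to 44.5 CPM and 16.9 to 60.5 CPM respectively.

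The 48 genes were well represented in the egg. On the authors' FPKM scale, which corrects for length, their median level over the 9 libraries was 12.1 against 2.91 for the 15617 genes that entered any test, and 40 of the 48 lay above the latter. Mdm4, the p53 inhibitor also called MDMX, stood far above the rest at 226.2 FPKM and took 41.6% to 43.7% of the counts of all 48 genes in each library. It was followed by Rad50 at 85.1 FPKM, the damaged-DNA binding subunit gene Ddb1 at 74.8, the checkpoint kinase Chek1 at 66.7 and the mismatch sensor Msh6 at 59.4. A further 21 genes lay between 10 and 50 FPKM, among them Brca1 and Brca2, the breast cancer recombination genes, both at 35.6, and 19 between 1 and 10. The lowest 3 were Prkdc at 0.87 FPKM, Ercc1 at 0.64 and Chek2 at 0.48. The large upstream kinases Atm and Atr were also low, at 1.06 and 1.24 FPKM. The value of Atr depends on its annotated length of 23629 bases. It held 531 to 906 counts per library, beside 320 to 785 for Nbn, which stood at 8.74 FPKM.

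**Figure D1:**
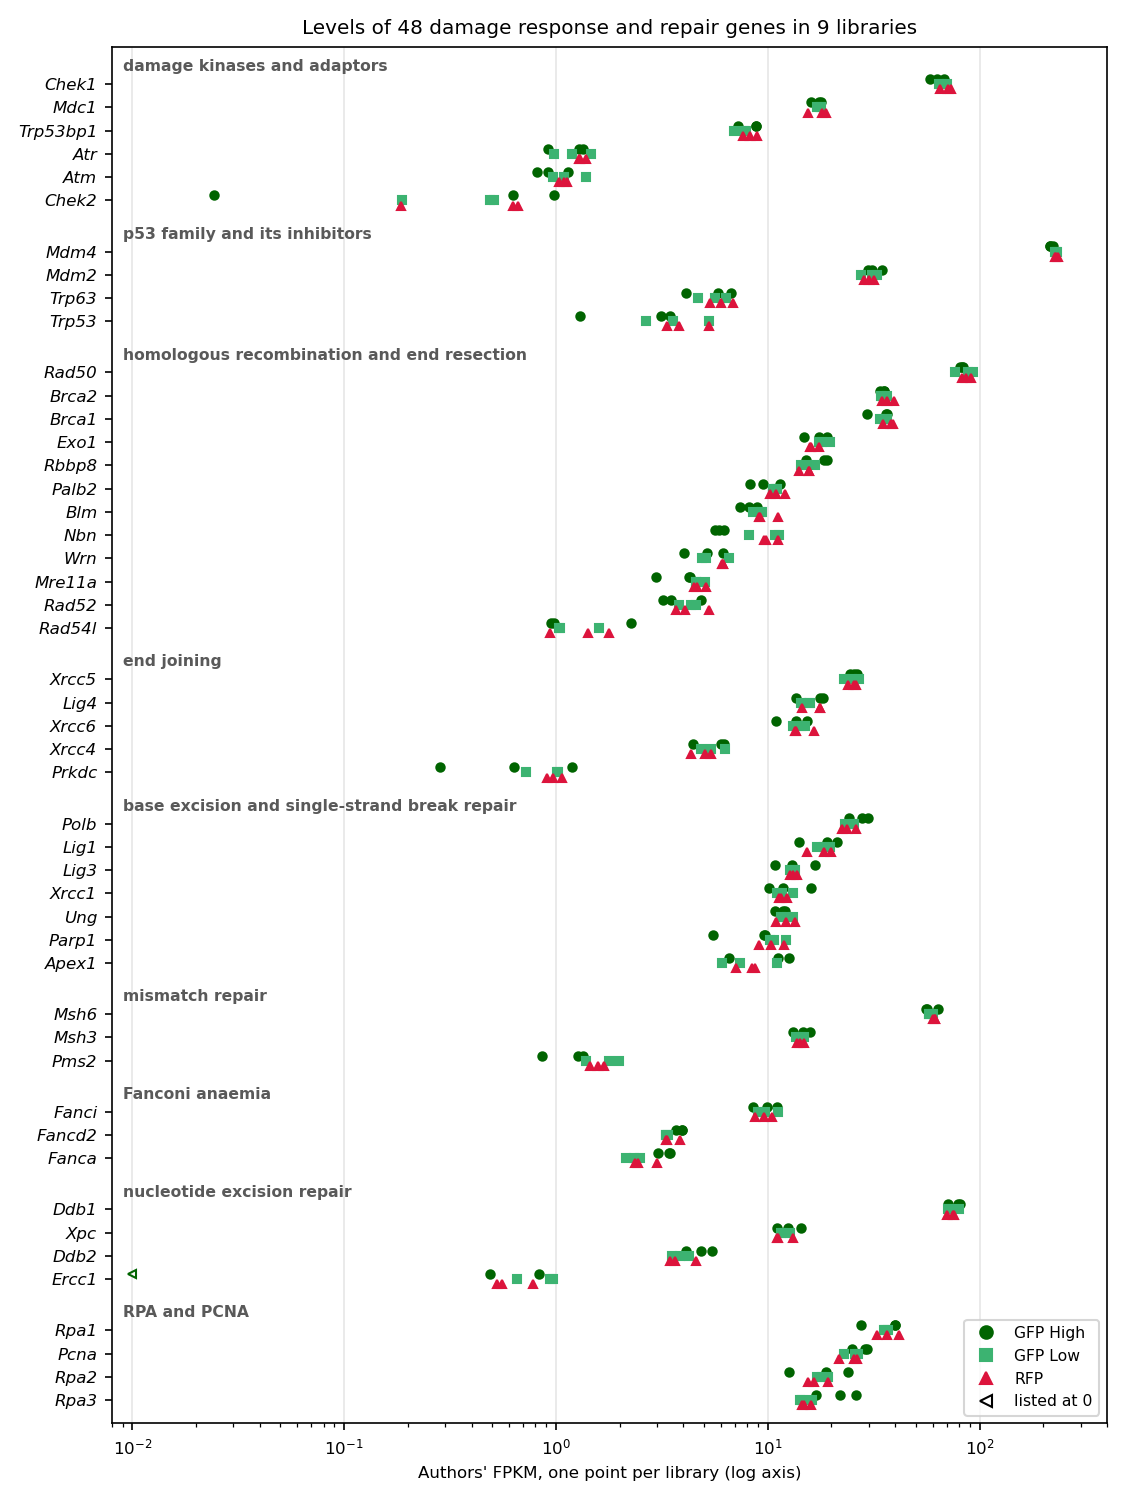
Level of the 48 genes on the authors' FPKM scale (log axis), arranged by role, with 1 point per library and an open triangle for the Ercc1 value listed at 0. Mdm4, at 226.2 FPKM over the 9 libraries, lies above Rad50 at 85.1, and Prkdc, Ercc1 and Chek2 lie at 1 FPKM or less.

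Chek1 transcripts outnumbered Chek2 transcripts 139.9-fold in the 9-library mean FPKM, and Mdm4 outnumbered Mdm2, the ubiquitin ligase that partners it, 7.35-fold, Trp63 39.6-fold and Trp53 63.8-fold. Chek2 held only 2 to 72 counts, and by library its ratio ran from 59.8 to 2610. The ratios of Mdm4 ran from 6.21 to 8.36 for Mdm2, 33.1 to 52.2 for Trp63 and 43.5 to 166.5 for Trp53. Msh6, which reads single mismatches, stood 4.14-fold above Msh3, its counterpart for larger loops. Xrcc5, which encodes the Ku80 subunit, stood 29.0-fold above Prkdc, the kinase that Ku recruits, with 20.7 to 90.4 by library. The 3 subunit genes of RPA, the protein that coats single-stranded DNA, lay closer together, with Rpa1 2.10-fold and Rpa2 1.04-fold of Rpa3.

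None of the 48 genes passed the adjusted threshold in any comparison. Between GFP High and RFP, 0 of 48 passed an adjusted p of 0.05 in edgeR's quasi-likelihood test, where 0.0135% of the 14829 genes tested did, and DESeq2 also called 0. At an unadjusted p under 0.05 there were 2 of 48, a share of 4.17% against 4.09% of all genes: Nbn, whose direction was known when the list was made, lower, and Rpa3 higher in GFP High. Of all genes 2.27% were higher and 1.81% lower at that p. The median log2 fold change of the 48 genes was -0.04 and that of all genes tested was -0.01, and 43.8% of the 48 lay above 0 against 49.3% of all genes. Groups of 3 did not overlap for 7 genes, 14.6% against 11.9% of all genes. Mdm4, Mre11a, Nbn, Blm, Wrn and Pms2 were lower and Rpa3 higher in all 3 GFP High libraries, where 6.99% of all genes were so lower and 4.88% higher. As the 7 include Nbn, listed with its difference known, this share is not read as a result about the 48 genes. The count without overlap was 16 without GFP High replicate 1, 14 without GFP High replicate 3 and 14 without RFP replicate 2. Fewer samples leave fewer values to overlap, and the share of all genes without these libraries is not given here. The median was 0.00285 without RFP replicate 3, and the count at an unadjusted p under 0.05 was 1 without any 1 of the RFP libraries. Of all genes, 288 of 15553, 426 of 15538 and 314 of 15577 were at that p without RFP replicates 1, 2 and 3.

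Between GFP Low and RFP the values of the 48 genes spanned a narrower range. None passed the adjusted threshold in edgeR or DESeq2, where edgeR called 0.0197% of 15199 genes, and 0 of 48 were at an unadjusted p under 0.05 against 2.62% of all genes (1.28% higher, 1.34% lower). Their log2 fold changes ran from -0.31 to 0.45 with a median of -0.02, against -0.0041 for all genes, and 37.5% of the 48 lay above 0 against 48.9% of all genes. Only Msh6 had groups that did not overlap, with all GFP Low values under all RFP values, 2.08% of the 48 against 7.68% of all genes (3.59% higher, 4.10% lower). That count was 3 to 6 when any 1 of the 6 libraries was left out, and the share of all genes is not given for this. Without GFP Low replicate 1 there was 1 gene at an unadjusted p under 0.05, beside 704 of 15850 genes tested. Without RFP replicate 3 there was also 1, beside 581 of 15964.

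GFP High against GFP Low, which shares the GFP High libraries with the first comparison, gave 0 of 48 at an adjusted p of 0.05 in edgeR and in DESeq2, and 0.0% of the 14785 genes in edgeR. At an unadjusted p under 0.05 there were 3 of 48, 6.25% against 3.77% of all genes. Nbn, whose direction against RFP was known when the list was made, was lower in GFP High, as were 1.92% of all genes. Fanca and Rpa3 were higher in GFP High, as were 1.85%. Without GFP Low replicate 1 the count of members was 1, beside 296 of 15598 genes. It was 1 without GFP Low replicate 3, beside 350 of 15667. The median was -0.02 against -0.0048 for all genes, and it was -0.07 without GFP High replicate 1 and -0.05 without GFP High replicate 2. Groups did not overlap for 8 genes, 16.7% against 11.5% of all genes: Mdm4, Mre11a, Nbn, Parp1 and Pms2 lower, and Fanca, Fancd2 and Rpa3 higher in GFP High, against 6.84% of all genes lower and 4.69% higher. The 8 also include Nbn, so this share is likewise not read as a result about the 48 genes. Without GFP High replicate 1 there were 19 genes without overlap, and the share of all genes is not given for that set of libraries. In edgeR the adjusted p of the 48 genes was 0.997 to 1.00 in all 3 comparisons.

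**Figure D2:**
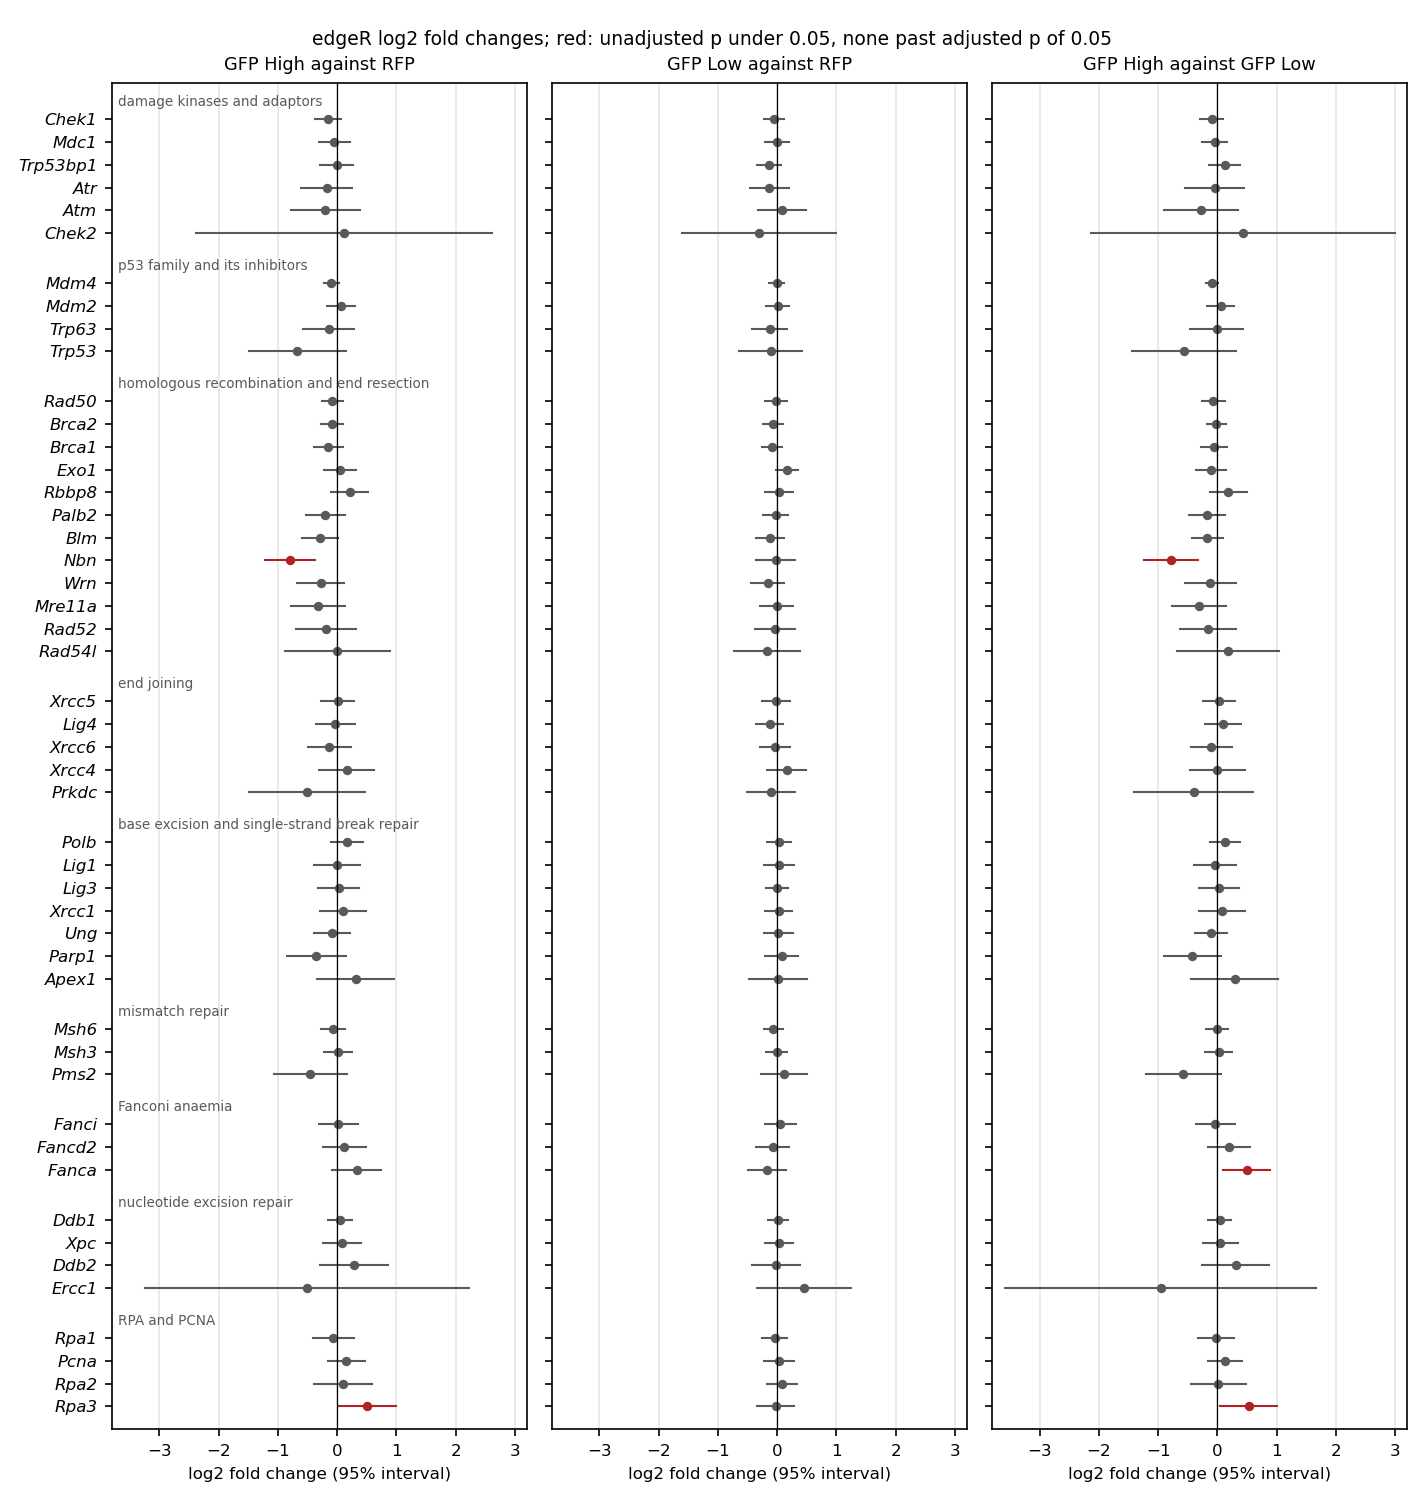
Log2 fold change with its 95% interval for the 48 genes in each of the 3 comparisons, arranged by role; red marks an unadjusted p under 0.05. GFP High against RFP spans -0.80 (Nbn) to 0.51 (Rpa3), GFP Low against RFP spans -0.31 to 0.45, and the widest intervals belong to Chek2 and Ercc1.

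The data bounded most of these differences. The 95% interval of the log2 fold change lay wholly within 1 unit of 0, a 2-fold change, for 42 of 48 genes in GFP High against RFP, for 46 in GFP Low against RFP and for 39 in GFP High against GFP Low. The same held for 50.3%, 65.7% and 50.3% of all genes tested. Genes whose interval reached beyond 1 unit in GFP High against RFP were Chek2, Trp53, Nbn, Prkdc, Pms2 and Ercc1, and in GFP Low against RFP Chek2 and Ercc1. In GFP High against GFP Low they were Chek2, Trp53, Nbn, Rad54l, Prkdc, Apex1, Pms2, Ercc1 and Rpa3.

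Nbn encodes NBS1, the subunit that joins MRE11 and RAD50 in the complex that first binds broken ends and activates ATM. The gene (mm10 chromosome 4, 15957925 to 15992589, plus strand) shares no exonic base with another annotated gene. Nbn was at 14.9, 15.8 and 14.4 CPM in replicates 1 to 3 of GFP High, at 21.0, 28.9 and 27.7 in those of GFP Low and at 24.6, 25.2 and 29.2 in those of RFP. All 3 GFP High values lay under all 6 others, and the GFP Low and RFP values overlapped. These levels rest on 320 to 409 counts for GFP High, 407 to 767 for GFP Low and 573 to 785 for RFP. The fitted level in RFP was 1.74-fold that in GFP High, a log2 fold change of -0.80 (SE 0.19). Against GFP Low, with the same GFP High libraries, it was -0.78 (SE 0.21). As the gene was listed with this difference known, no p-value is read from these values. GFP Low and RFP differed by -0.02 (SE 0.15, 95% interval -0.35 to 0.31). The authors' own adjusted p for Nbn, from DESeq2, was above 0.05, at 0.0637 when GFP High is set against RFP. It was 0.252 when GFP High is set against GFP Low. Both values rest on the same libraries, so they are given as a description and likewise not read as a result. The summed cumulus and granulosa marker level was 46.6, 8.59 and 14.7 CPM in GFP High 1 to 3, and its part in the values of Nbn was not tested.

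Of the partners of Nbn, Mre11a had GFP High values under all others and Rad50 did not; differences between the genes were not tested. Rad50, the long coiled-coil ATPase of the complex, was at 447.1, 434.9 and 454.7 CPM in the GFP High pools, 478.8, 508.8 and 415.3 in those of GFP Low and 494.0, 449.5 and 477.8 in those of RFP, with overlapping groups. Its log2 fold change was -0.08 (SE 0.08) for GFP High against RFP, -0.02 (SE 0.09) for GFP Low against RFP and -0.07 (SE 0.09) for GFP High against GFP Low. Mre11a, the nuclease of the complex, was at 25.7, 17.6 and 25.4 CPM in the GFP High pools, 27.4, 27.4 and 30.3 in those of GFP Low and 27.0, 27.8 and 30.9 in those of RFP; the GFP High values were all lower, with a log2 fold change of -0.32 (SE 0.20) against RFP. On the FPKM scale Nbn was 6.72% to 7.70% of Rad50 for GFP High, 9.31% to 14.1% for GFP Low and 10.6% to 12.9% for RFP, and Mre11a was 3.67% to 5.20%, 4.89% to 6.63% and 4.97% to 5.87% of Rad50. The ratio of Nbn to Mre11a was 1.36, 2.10 and 1.33 for GFP High, 1.80, 2.46 and 2.13 for GFP Low and 2.13, 2.11 and 2.21 for RFP, so that GFP High replicate 2 lay within the GFP Low range.

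**Figure D3:**
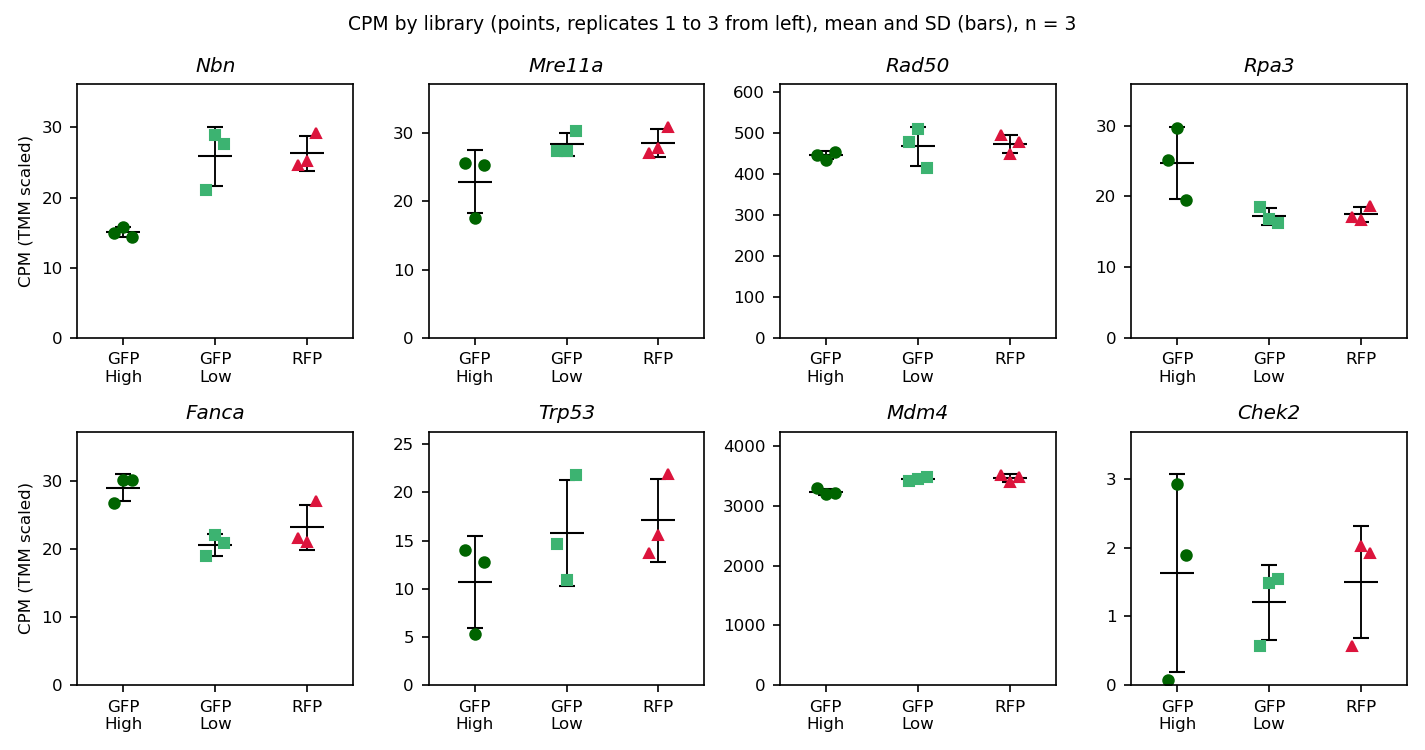
CPM of 8 genes in each of the 9 libraries (points), with the mean and SD of each group of 3 (bars), on linear axes from 0. The 3 GFP High values of Nbn, 14.4 to 15.8, lie under all 6 others, whereas those of Rad50, Trp53 and Chek2 overlap the other groups.

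Of the 12 genes of end resection and homologous recombination, 9 had a negative and 3 a positive log2 fold change in GFP High against RFP, with a median of -0.17, where 50.7% of all genes were negative. Nbn, listed with its difference known, was the 1 gene of the 12 at an unadjusted p under 0.05. The share, 8.33% beside 4.09% of all genes, is thus not read as a result about the group. In GFP Low against RFP 10 were negative with a median of -0.03, against 51.1% of all genes negative, and in GFP High against GFP Low 10 were negative with a median of -0.11, against 50.6%. Blm, a helicase that dissolves recombination intermediates, was at 78.6, 71.3 and 65.6 CPM in GFP High and at 82.1, 80.5 and 101 in RFP (log2 fold change -0.28, SE 0.14). Wrn, the Werner helicase, gave -0.28 (SE 0.18), with 30.6, 46.9 and 39.7 CPM against 47.0, 47.3 and 48.1. For both, the GFP High values lay under the RFP values and overlapped those of GFP Low. Rbbp8, which encodes the resection factor CtIP, had the highest value of the group, 0.21 (SE 0.14). Brca1 differed by -0.15 (SE 0.11), Brca2 by -0.09 (SE 0.08) and Palb2, which bridges them, by -0.20 (SE 0.15). Rad54l, a recombination translocase and the lowest of the group per length, was at 7.35, 17.3 and 7.60 CPM in the GFP High pools, 12.5, 8.14 and 8.05 in those of GFP Low and 13.8, 7.34 and 11.1 in those of RFP. GFP High replicate 2 held the highest of these values, and the log2 fold change was 0.00 (SE 0.40), -0.18 (SE 0.26) and 0.17 (SE 0.39) in the order GFP High against RFP, GFP Low against RFP and GFP High against GFP Low. The first of these was -0.53 without GFP High replicate 2. The remaining recombination genes, Exo1 (0.05, SE 0.12) and Rad52 (-0.19, SE 0.23), overlapped between all groups.

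Of the 6 damage kinases and adaptors, 5 had a negative log2 fold change in GFP High against RFP (median -0.10), where 50.7% of all genes did. In GFP Low against RFP 5 were negative (median -0.09), against 51.1% of all genes. In GFP High against GFP Low 4 were negative (median -0.05), against 50.6%. In each comparison 0 were at an unadjusted p under 0.05, against 4.09%, 2.62% and 3.77% of all genes in that order. Chek1 was at 294.7, 270.5 and 318.4 CPM in the GFP High pools, 329.8, 313.2 and 303.2 in those of GFP Low and 343.1, 332.9 and 309.3 in those of RFP. These groups overlapped, and the log2 fold changes were -0.15 (SE 0.10), -0.06 (SE 0.08) and -0.10 (SE 0.09) in the same order of comparisons. Chek2 was measured on few counts, 2, 72 and 42 in the GFP High pools, 11, 39 and 43 in those of GFP Low and 15, 46 and 52 in those of RFP. Its CPM was 0.0731, 2.93 and 1.89, then 0.568, 1.49 and 1.55, then 0.567, 2.02 and 1.93, so that GFP High held both the lowest and the highest library. The log2 fold changes were 0.12 (SE 1.12, 95% interval -2.38 to 2.62), -0.31 (SE 0.60) and 0.43 (SE 1.15), and these libraries could not show a difference of several-fold in Chek2. Atm and Atr gave -0.20 (SE 0.26) and -0.18 (SE 0.19) in GFP High against RFP. The adaptors Mdc1 and Trp53bp1, which gather repair factors on chromatin at breaks, gave -0.05 (SE 0.12) and -0.01 (SE 0.12).

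In the p53 family, Trp53, the tumour suppressor itself, was at 14.0, 5.25 and 12.8 CPM in the GFP High pools, 14.7, 10.9 and 21.8 in those of GFP Low and 13.8, 15.6 and 21.9 in those of RFP. The groups overlapped, GFP High replicate 2 was the lowest library, and the log2 fold changes were -0.67 (SE 0.37), -0.11 (SE 0.24) and -0.56 (SE 0.39). Trp63, the source of TAp63 in oocytes, was at 56.4, 48.6 and 34.9 CPM in the GFP High pools, 39.7, 48.0 and 53.8 in those of GFP Low and 45.4, 58.1 and 51.8 in those of RFP, with a log2 fold change of -0.14 (SE 0.19) for GFP High against RFP; the counts do not separate its isoforms. Mdm4 was at 3296, 3198 and 3214 CPM in the GFP High pools, 3420, 3451 and 3479 in those of GFP Low and 3526, 3398 and 3488 in those of RFP. Every GFP High value of Mdm4 lay under every other, and the log2 fold changes were small at -0.10 (SE 0.06), -0.01 (SE 0.06) and -0.09 (SE 0.05). Mdm2 gave 0.07 (SE 0.11) in GFP High against RFP. Processed copies named Trp53-ps and Mdm4-ps held 0 to 12 and 7 to 39 counts, and reads shared with them could be split.

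End joining genes, which seal breaks without a template, had a median of -0.03 in GFP High against RFP, with 2 of 5 above 0, where 49.3% of all genes were. Xrcc5 was at 67.8, 65.6 and 63.0 CPM in the GFP High pools, 64.3, 59.3 and 69.7 in those of GFP Low and 61.9, 66.1 and 68.2 in those of RFP, and its log2 fold changes were 0.01 (SE 0.12), -0.02 (SE 0.11) and 0.03 (SE 0.12). Prkdc was uneven within GFP High, at 8.37, 3.74 and 15.7 CPM, against 13.6, 13.6 and 9.67 for GFP Low and 13.0, 12.2 and 14.4 for RFP. GFP High replicate 2 was again the lowest, and the log2 fold changes were -0.50 (SE 0.44), -0.11 (SE 0.19) and -0.40 (SE 0.45). The value for GFP High against RFP was -0.13 without GFP High replicate 2 and -1.12 (unadjusted p = 0.0211) without GFP High replicate 3, and that for GFP High against GFP Low was -0.0282 and -1.02 (unadjusted p = 0.0386) without the same libraries in turn. Xrcc6, the Ku70 gene, gave -0.13 (SE 0.16) in GFP High against RFP, and the ligase pair Xrcc4 and Lig4 gave 0.16 (SE 0.21) and -0.03 (SE 0.15).

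Base excision and single-strand break genes had a median of 0.02 in GFP High against RFP and 0.03 in GFP Low against RFP. Polb, the gap-filling polymerase, was at 95.9, 117 and 110.5 CPM in the GFP High pools, 100.3, 102 and 92.8 in those of GFP Low and 94.4, 104 and 90.8 in those of RFP, with log2 fold changes of 0.17 (SE 0.12), 0.03 (SE 0.09) and 0.13 (SE 0.11). Apex1, the abasic-site endonuclease, was at 16.0, 17.9 and 9.36 CPM in the GFP High pools, 8.78, 15.9 and 10.7 in those of GFP Low and 12.5, 10.1 and 12.3 in those of RFP. Its groups overlapped, and the log2 fold changes were 0.31 (SE 0.29), 0.02 (SE 0.22) and 0.29 (SE 0.33). Of the exonic bases of Apex1, 61.7% are shared with Pip4p1 on the opposite strand, and without a stated strand setting the reads of such pairs cannot be told apart. Such overlap is not particular to Apex1, as 24 of the 48 genes share exonic bases with another annotated gene. Among them are Lig3 (25.1%), Ddb2 (23.8%), Fanci (16.0%), Rad54l (15.4%), Ercc1 (3.41%) and Mre11a (2.60%). The part of these overlaps in the counts was not tested. Parp1, which senses nicks, was at 51.6, 29.1 and 51.2 CPM in GFP High and 57.0, 65.4 and 55.0 in GFP Low, with no overlap between them and a log2 fold change of -0.43 (SE 0.22). The values of Parp1 in RFP, 48.8, 55.3 and 64.6, overlapped those of GFP High. Ung, Xrcc1, Lig3 and Lig1 lay between -0.09 and 0.10 in GFP High against RFP.

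In mismatch repair, Msh6 was at 271.4, 239.4 and 240.8 CPM in the GFP High pools, 248.9, 259.3 and 248.3 in those of GFP Low and 265.4, 259.9 and 268.0 in those of RFP. GFP Low lay just under RFP in every library, and the log2 fold changes were -0.07 (SE 0.09), -0.07 (SE 0.07) and -0.01 (SE 0.09). Pms2, a subunit of the mismatch endonuclease, was at 11.0, 7.00 and 10.4 CPM in the GFP High pools, 16.4, 14.6 and 11.4 in those of GFP Low and 11.9, 13.9 and 13.1 in those of RFP. Every GFP High value of Pms2 lay under every other, with log2 fold changes of -0.45 (SE 0.27), 0.12 (SE 0.18) and -0.57 (SE 0.29). Msh3 gave 0.02 (SE 0.11) in GFP High against RFP.

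The Fanconi anaemia genes, which unhook crosslinked strands, were represented by 1 core complex gene and both partners of the clamp it modifies. Fanca, of the core complex, was at 26.7, 30.2 and 30.1 CPM in the GFP High pools, 18.9, 22.0 and 20.9 in those of GFP Low and 21.6, 21.0 and 27.0 in those of RFP. GFP High lay above GFP Low in every library and overlapped RFP by 1 library, with log2 fold changes of 0.33 (SE 0.18), -0.17 (SE 0.15) and 0.49 (SE 0.18, 95% interval 0.09 to 0.90, unadjusted p = 0.0204). That p was 0.0877 without GFP Low replicate 1 and 0.0567 without GFP Low replicate 3. Fanca shares 10.5% of its exonic bases with Zfp276 on the opposite strand. The clamp gene Fancd2 was at 29.3, 31.1 and 31.5 CPM in GFP High against 26.5, 27.2 and 26.7 in GFP Low, a log2 fold change of 0.20 (SE 0.16). Fanci, its partner, was at 57.4, 63.6 and 49.7 CPM in the GFP High pools, 56.9, 52.4 and 65.8 in those of GFP Low and 56.2, 50.6 and 61.9 in those of RFP, with log2 fold changes of 0.02 (SE 0.15), 0.06 (SE 0.12) and -0.03 (SE 0.15). Fanci overlapped between all groups.

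For nucleotide excision repair, which cuts out bulky lesions, Ddb1 was at 296.5, 327.9 and 337.9 CPM in the GFP High pools, 335.0, 302.2 and 298.4 in those of GFP Low and 294.4, 316.1 and 320.7 in those of RFP, and the log2 fold changes were 0.05 (SE 0.09), 0.01 (SE 0.08) and 0.04 (SE 0.09). Ercc1, which encodes a nuclease subunit of this pathway, had 71, 0 and 34 counts in the GFP High pools, 59, 54 and 82 in those of GFP Low and 65, 40 and 45 in those of RFP. The 0 in GFP High replicate 2 allows up to 0.122 CPM (3 counts, counting error only), whereas the other 8 libraries lay at 1.53 to 3.05 CPM. Its log2 fold changes were -0.51 (SE 1.22), 0.45 (SE 0.37) and -0.96 (SE 1.18), and the first was 0.07 without GFP High replicate 2. The lesion sensors Ddb2 and Xpc gave 0.29 (SE 0.26) and 0.09 (SE 0.14) in GFP High against RFP.

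Among the RPA and PCNA genes, Rpa3, the smallest RPA subunit, was at 25.1, 29.7 and 19.4 CPM in the GFP High pools, 18.5, 16.7 and 16.3 in those of GFP Low and 17.0, 16.6 and 18.6 in those of RFP. Every GFP High value lay above every other, the nearest by less than 1 CPM. The log2 fold change of Rpa3 was 0.51 (SE 0.21, 95% interval 0.03 to 0.99, unadjusted p = 0.0389) against RFP and 0.53 (SE 0.22, 95% interval 0.05 to 1.01, unadjusted p = 0.0343) against GFP Low, while GFP Low and RFP differed by -0.02 (SE 0.14). Without GFP High replicate 2 the value against RFP was 0.35 (unadjusted p = 0.116), and without GFP High replicate 3 it was 0.65 (unadjusted p = 0.0107). The edgeR p against RFP was also not under 0.05 without GFP High replicate 1, without any 1 of the RFP libraries, or with a replicate block. Against GFP Low, with 1 library left out, the unadjusted edgeR p of Rpa3 ran from 0.00958 to 0.107. Rpa1, the large subunit, was at 223, 155 and 224 CPM in the GFP High pools, 201, 200.3 and 209 in those of GFP Low and 206, 185 and 238 in those of RFP. Its log2 fold changes were -0.06 (SE 0.15), -0.04 (SE 0.09) and -0.02 (SE 0.14), and differences between the subunit genes were not tested. Rpa2, the middle subunit, was at 71.6, 37.8 and 56.7 CPM in GFP High and at 46.8 to 59.1 in the other 6 libraries. The FPKM ratio of Rpa2 to Rpa3 was 0.483 in GFP High replicate 2 and 1.04 to 1.36 in the other 8 libraries. Pcna, the replication clamp, gave 0.16 (SE 0.14) in GFP High against RFP; its copy Pcna-ps2 held 181 to 263 counts.

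The spread between replicates was wider in GFP High, the group with the fewest eggs per pool. The median coefficient of variation of the 48 genes was 14.5% for GFP High, 7.34% for GFP Low and 8.91% for RFP, against 31.0%, 16.1% and 15.9% over all genes. It was larger in GFP High than in RFP for 36 of 48 genes and larger in GFP High than in GFP Low for 38. The share of all genes is not given for these counts, so they are not read as a result about the 48 genes. The genes over 50% in GFP High were Ercc1 (94.9%), Chek2 (88.7%), Prkdc (65.2%) and Rad54l (52.9%), all of low level, and in RFP only Chek2 (54.1%). Mdm4, the most abundant, had the lowest value in GFP High, 1.62%, and in GFP Low, 0.859%. GFP High replicate 2 held the lowest CPM of the 9 libraries for 14 of the 48 genes, 29.2% against 31.6% of all genes, and the highest for 13, 27.1% against 22.0%. The part of pool size in this spread was not tested.

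**Figure D4:**
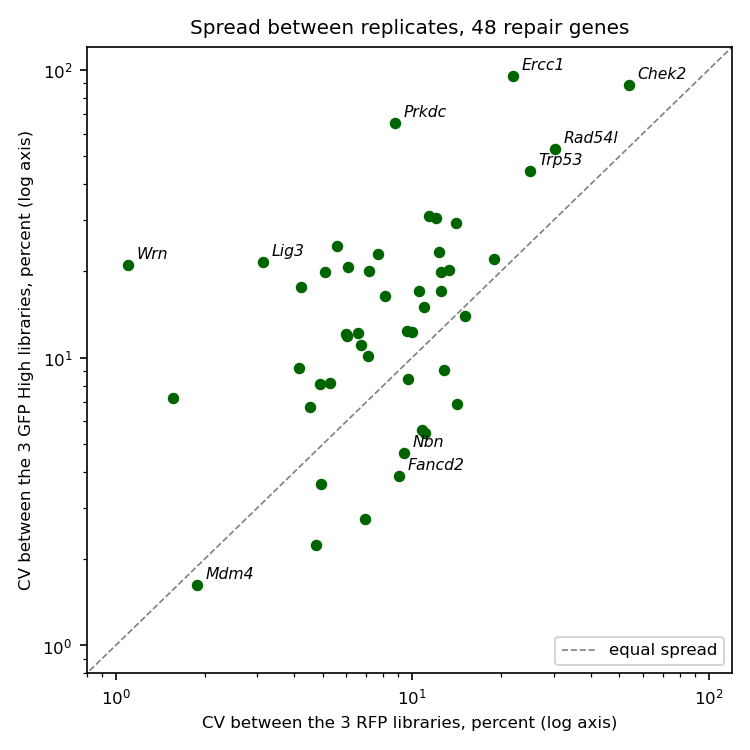
Coefficient of variation (CV, percent) of CPM between the 3 GFP High libraries against that between the 3 RFP libraries, 1 point per gene for the 48 genes, on log axes; the dashed line marks equal spread. Of the 48 points 36 lie above the line, with Ercc1, Chek2, Prkdc and Rad54l over 50% in GFP High. The share of all genes above the line is not given.

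The other genes of these pathways were taken from lists of 133 genes, of which 122, 123 and 121 were tested in GFP High against RFP, GFP Low against RFP and GFP High against GFP Low. In edgeR 0 passed the adjusted threshold in each comparison. At an unadjusted p under 0.05 there were 4 of 122, 3 of 123 and 8 of 121, shares of 3.28%, 2.44% and 6.61% against 4.09%, 2.62% and 3.77% of all genes. Nhej1 and Polm were higher and Fancc and Polk lower in GFP High against RFP. Telo2 and Nthl1 were higher and Ppm1d lower in GFP Low against RFP. In GFP High against GFP Low, the genes reported here were Nhej1 and Ccng1, which were higher, and Fancc, Rad23b, Cdc25a, Topbp1 and Rad54b, which were lower; apart from Nhej1 and Telo2 these genes were named after their values were seen. The medians of these lists together were -0.0050, 0.01 and -0.04. Nhej1, which encodes the end joining factor XLF, was at 51.7, 53.1 and 48.0 CPM in the GFP High pools, 28.4, 26.6 and 39.7 in those of GFP Low and 41.4, 29.8 and 27.4 in those of RFP, above both other groups in all 3 GFP High libraries. Its log2 fold change was 0.64 (SE 0.18, unadjusted p = 0.00606, edgeR adjusted p = 0.997) against RFP and 0.69 (SE 0.18, unadjusted p = 0.00314, edgeR adjusted p = 0.998) against GFP Low. Telo2, a chaperone partner of the damage kinases, had the smallest p in GFP Low against RFP, with 2.43, 3.94 and 4.08 against 1.51, 1.80 and 2.27 CPM (log2 fold change 0.91, SE 0.36, unadjusted p = 0.0257, edgeR adjusted p = 1.00). Of the 20 listed p53 targets and TAp63 death genes, 14, 14 and 13 were tested, 0 passed the adjusted threshold, and the median log2 fold changes were -0.02, 0.03 and 0.05.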

How the data were processed

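Messenger RNA selected on poly-dT beads was sequenced from 9 pools of MII oocytes, 3 in each of 3 fluorescence groups. The deposited tables hold, for each gene and library, a read count as the authors made it, together with FPKM values (reads relative to gene length and library size), a signal that is the count divided by a size factor, which was not used here, and the authors' own log2 fold changes and p-values. The submitters' processing notes name fastp, HISAT2 2.0.5, featureCounts 1.5.0-p3 and DESeq2 1.20.0, with the mm10 genome build; whether counting used strand is not given in the sources used here. The 3 tables (26775, 29099 and 26570 genes) were joined by gene ID into 30153 genes, and 178 genes absent from a library's tables were set to 0 counts there.

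Counts were tested with edgeR 4.0.16 in R 4.3.3 (quasi-likelihood F test, filterByExpr, TMM scaling) on the 6 libraries of each pair of groups, with Benjamini-Hochberg adjustment over all genes tested and a threshold of 0.05. CPM is counts relative to library size with TMM scaling over all 9 libraries. Standard errors and 95% intervals of the log2 fold change were derived from the F statistic. The fits were tested on simulated data with known changes, all larger than any seen in the members, and with the same spread in every group. Smaller changes, changes in genes of low counts and a wider spread in GFP High were not simulated. DESeq2 1.42.0, other scalings, other filters, a replicate block, a fit of all 9 libraries and leaving out each library were the alternatives. The members and the lists were chosen with earlier results of these data known. Genes given with full values were Nbn, every member at an unadjusted p under 0.05, and the highest and lowest member of each role by FPKM; the library values of Trp63, Mre11a, Blm, Wrn, Parp1, Fancd2 and Rpa2 were added after their values were seen; other pathway genes were to be named where they passed the adjusted threshold or had the smallest p of a comparison. Gene positions are those of the deposited tables, and exon overlaps come from GENCODE M21, which has the same start and end for 45 of the 48 genes. Library totals were 19381677 to 27746256 counts. Results for some of the other pathway genes are not reported here.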

Additional observations from a re-analysis of the deposited data

How the results depend on the processing

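No member passed an adjusted p of 0.05 under any alternative run. Deviations from the group means correlated at -0.106 to 0.120 between libraries of the same replicate number (9 correlations). These values cannot show whether same-numbered pools share animals, which the labels do not say. With the replicate block, 4 genes passed in GFP High against RFP. There 1 member was at an unadjusted p under 0.05, beside 546 of 14829 genes. Genes past the adjusted threshold numbered 16, 34 and 16 with no filter on low counts and 12, 10 and 4 in DESeq2, against 2, 3 and 0, in the order GFP High against RFP, GFP Low against RFP and GFP High against GFP Low; leaving out 1 library gave 0 to 2, 2 to 3 and 0 to 1. Members at an unadjusted p under 0.05 numbered 5 of 48 with no filter in GFP High against RFP, where 1603 of 27464 genes were. With 1 library left out they numbered 1 to 3, 0 to 1 and 1 to 4. In the same fits 288 to 1731, 379 to 704 and 278 to 1612 of all genes were at that p, out of 15538 to 15998 tested. Members without overlap numbered 2 in GFP Low against RFP with DESeq2 size factors, and 9 to 16, 3 to 6 and 9 to 19 with 1 library left out. The share of all genes is not given for these counts, so they are not read as a result about the members. The DESeq2 test, the fit of 9 libraries, the block and the bias-adjusted deviances, an alternative chosen after seeing the data, give no such count. The member median was -0.0717 to 0.00285, -0.0426 to -0.00525 and -0.0685 to -0.00316 with 1 library left out. Among named members 14 values outside the leave-one-out fits changed sign; the cause was not tested. With the replicate block Chek2 was at -0.59 against RFP and -0.32 against GFP Low, Apex1 at -0.0203 in GFP Low against RFP, and Rad54l at -0.0876 in GFP High against RFP. Rad54l there was also at -0.0149 with library totals alone, -0.0082 with no filter, -0.00175 with 9 libraries and -0.0172 with bias-adjusted deviances, and Xrcc5 at -0.00665 with library totals alone and -0.00554 with no filter. Ddb1 in GFP Low against RFP was at -0.000217 with library totals alone. Msh6 in GFP High against GFP Low was at 0.00362 with DESeq2 size factors, 0.000676 with a mean of at least 50 counts and 0.00412 in DESeq2.

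With 1 library left out, signs changed in GFP High against RFP for Chek2 (-0.62 to 0.68), Rad54l (-0.53 to 0.22), Xrcc5 (-0.0376 to 0.0313), Fanci (-0.0714 to 0.10), Ercc1 (-1.36 to 0.0729) and Rpa1 (-0.16 to 0.0876). In GFP Low against RFP they changed for Chek2 (-0.70 to 0.0209), Trp53 (-0.42 to 0.11), Mdm4 (-0.0215 to 0.00219), Rad50 (-0.0847 to 0.0587), Nbn (-0.11 to 0.11), Rad54l (-0.41 to 0.043), Xrcc5 (-0.0832 to 0.0346), Prkdc (-0.19 to 0.0379), Apex1 (-0.26 to 0.19), Polb (-0.0133 to 0.0888), Fanci (-0.0436 to 0.13), Ddb1 (-0.0442 to 0.0363), Rpa1 (-0.12 to 0.0524) and Rpa3 (-0.0765 to 0.0268). In GFP High against GFP Low they changed for Chek2 (-0.31 to 0.99), Rad54l (-0.35 to 0.41), Xrcc5 (-0.0375 to 0.0801), Msh6 (-0.0754 to 0.0199), Fanci (-0.13 to 0.0549), Ddb1 (-0.000714 to 0.0924) and Rpa1 (-0.11 to 0.13). Chek2 and Ercc1 rest on 0 to 82 counts per library, with counts that differed widely within GFP High; the parts of depth and of pool in their wide intervals were not tested.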
